A study of Mus musculus with 8 samples.

Results

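The genes described here are 10 immediate early genes that encode nuclear proteins: Egr1, Egr2, Egr3 and Egr4, Ier2 and Ier3, Nr4a1, Nr4a2 and Nr4a3, and Atf3. They were chosen by symbol from the 24062 genes of the RNA-seq comparison, in which all 10 were listed. At Egr3 the cytosines measured by reduced representation bisulfite sequencing (RRBS) were added, which are 216 of 2361680. RRBS reads CpG-rich MspI fragments after bisulfite conversion and so samples methylation mostly in dense CpG stretches.

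Both assays compared stable clones of NIH3T3, a mouse embryonic fibroblast cell line. The 14-3-3ε clones, numbers 10 and 12, carried a FLAG-tagged 14-3-3ε sequence in the plasmid p3xFLAG-CMV-10. In that plasmid the constitutive promoter of a cytomegalovirus drives the insert. Clones 2 and 3 carried the control vector. Every clone grew in 10% serum. The 14-3-3ε clones were picked as single colonies after selection in 800 µg/mL of G418 and checked for the FLAG tag by western blot, while the selection of the control clones is not described apart. RRBS and RNA-seq each covered 2 clones per group, which made 8 samples in 4 groups. A clone descends from 1 cell, so a difference between clones can come from the clone as well as from the plasmid, and 2 clones per group separate these weakly. Each table held only the authors' comparison, with no value for a clone and no depth, so the spread between clones could not be shown. Neither table states its direction. Positive values were read as higher in the 14-3-3ε clones, which is the convention of the tools named, and all directions below rest on that reading. The mouse gene of 14-3-3ε, Ywhae, gave no check of it, with a log2 fold change of -0.03 (SE 0.18) in the authors' deposited table. Of 10 fibroblast markers, 9 had a mean normalized count above 100, with Fap listed at 0. Among 31 listed markers of epithelium, endothelium, blood, muscle, neural cells and adipocytes, 3 exceeded that level (Cd68 at 109.6, Map2 at 781.1 and Lpl at 2799.9 in the authors' deposited table), and each of these lists but that of adipocytes had 1 marker at 0.

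Immediate early genes are transcribed within minutes of a growth factor, serum or stress signal, without new protein synthesis. Kinases of the MAP kinase cascade phosphorylate factors already bound at their promoters, chiefly serum response factor (Srf) with its Elk partners at CArG boxes and Creb at cyclic AMP response elements. Most of their transcripts are short-lived, so a level in growing cells reflects the signals of that moment. Egr proteins are zinc finger activators of a second wave of genes and are held back by the corepressors Nab1 and Nab2. Nr4a proteins are orphan nuclear receptors, and Atf3 is a basic leucine zipper repressor of the stress response.

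RNA of 3 Egr genes and of Ier2 was higher in the 14-3-3ε clones, and RNA of Nr4a1, Nr4a2, Ier3 and Atf3 was not called different. Egr1, Egr2 and Egr3 rose about 3.41-fold, 4.41-fold and 2.81-fold, and Ier2, a small nuclear protein gene induced by serum, rose 1.88-fold, as converted from the authors' deposited table. Of the 10 genes, 8 had an adjusted p, and 4 of these 8 were higher and 0 lower at an adjusted p under 0.05 (DESeq2, per the submitters' processing notes). In bulk RNA a change in the share of cells that express a gene and a change of RNA per cell cannot be told apart. No other tool could be run on a table without values per library. Among all 11482 tested genes, 6.15% were higher, 4.74% lower and 10.9% either. The median log2 fold change was 0.50 over the 8 genes and -0.003 over all tested genes, both computed from the authors' deposited table. No gene lay near 0.50, as the 4 called genes ran from 0.91 to 2.14 and the 4 others from -0.39 to 0.08. The 8 genes with an adjusted p are those that passed the authors' filter on low counts, not the whole set, and the set was named with earlier results of these data known. Some cell type markers changed in the same comparison. Of 9 tested fibroblast markers, 4 were higher and 0 lower. These were Pdgfra by 1.70, Pdgfrb by 1.36, Col1a1 by 0.98 and Col1a2 by 0.89 on the log2 scale (DESeq2 adjusted p from 1.44e-06 to 0.0182), per the authors' deposited table. Of 6 tested markers of other cell types, 0 were higher and 3 lower, namely Krt14 at -1.41, Map2 at -1.36 and Des at -1.28 (adjusted p from 0.00411 to 0.00931) in the authors' deposited table. Their part in the results was not tested.

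**Figure D1:**
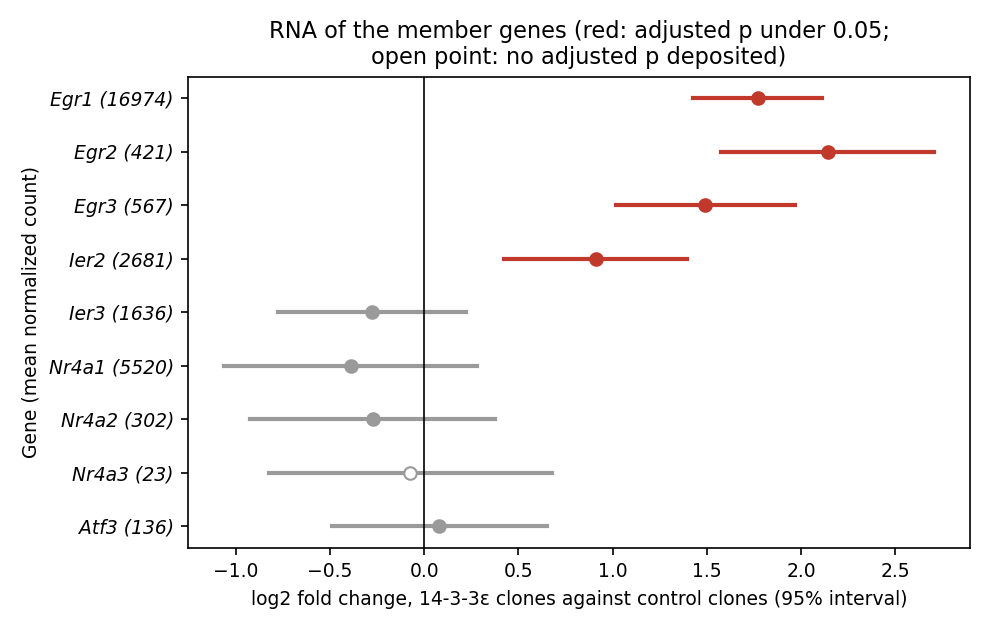
Log2 fold change of each gene in 14-3-3ε clones against control clones (x axis), with 95% intervals computed from the deposited standard errors and the mean normalized count in brackets (y axis). Egr1, Egr2, Egr3 and Ier2 lie right of 0 with intervals that do not reach it, while the other 5 intervals span 0; Egr4, listed at 0, has no value.

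Egr1, the founding member of the family, lies on chromosome 18 from 34861207 to 34864956 (build mm10; gene spans from RefSeq genes of GRCm38.p6). Its mean normalized count over all libraries was 16974.5 in the authors' deposited table, a count of reads that is not scaled to gene length. The authors' deposited table gave Egr1 a log2 fold change of 1.77 with an SE of 0.17 (adjusted p = 3.80e-21). The 95% interval from that SE ran from 1.43 to 2.11, or from 2.69-fold to 4.33-fold. By the authors' statistic Egr1 ranked 11 among the 5718 tested genes with a positive fold change, and by fold change 73. Only 1.02% of tested genes had a smaller standard error.

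Egr2, also called Krox20 and known for its part in hindbrain patterning and Schwann cell myelination, lies on chromosome 10 from 67534469 to 67542188. It had the largest fold change of the 10 genes, a log2 value of 2.14 (SE 0.29; adjusted p = 2.79e-11) at a mean normalized count of 420.5 in the authors' deposited table. The 95% interval was 1.58 to 2.71. Only 0.357% of tested genes had a larger change in size. The annotated long non-coding RNA gene Gm32255 overlaps one end of Egr2. It is not listed under that symbol in the RNA-seq comparison. Whether reads from it entered the Egr2 count cannot be told.

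Egr3, a paralog needed for muscle spindle development, lies on chromosome 14 from 70077317 to 70082613. Its log2 fold change was 1.49 (SE 0.24; adjusted p = 9.87e-08) and its mean normalized count 567.1, again from the authors' deposited table. The interval ran from 1.02 to 1.97 on the log2 scale. The intervals of the 3 Egr genes overlap one another. A difference between genes of one fit was not tested, since the table gives no covariance.

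Egr4, the family member found mainly in neurons and germ cells, was listed at a mean normalized count of 0 in the authors' deposited table, and no fold change was given. It lies on chromosome 6 from 85511121 to 85513589.

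Ier2 and Ier3 share a name, not a protein family. Ier2 lies on chromosome 8 from 84661331 to 84662852 and rose by 0.91 on the log2 scale (SE 0.25; adjusted p = 0.00484; interval 0.42 to 1.39) with a mean normalized count of 2681.4, per the authors' deposited table. Ier3, a short-lived regulator of apoptosis on chromosome 17 from 35821713 to 35822911, had a log2 fold change of -0.28 (SE 0.25; adjusted p = 0.556) at a count of 1636.2 in the authors' deposited table. Its interval, -0.78 to 0.22, lies below that of Ier2.

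All 3 Nr4a receptors had negative values, and neither of the 2 that were tested passed the test. Nr4a1 (Nur77), on chromosome 15 from 101253902 to 101274795, had a log2 fold change of -0.39 (SE 0.34; adjusted p = 0.534) and a mean normalized count of 5519.5 in the authors' deposited table. For Nr4a2 (Nurr1), a receptor needed for dopamine neurons, the log2 value was -0.27 (SE 0.33; adjusted p = 0.680) at a count of 301.5 in the authors' deposited table. It lies on chromosome 2 from 57106830 to 57124003, and the gene model LOC105244150 overlaps it. Nr4a3 (Nor1), on chromosome 4 from 48045078 to 48086447, had few reads, 23.2 on average, and a log2 value of -0.07 (SE 0.38; p = 0.849) with no adjusted p in the authors' deposited table. The standard errors of Nr4a1 and Nr4a2 were larger than those of 87.5% and 85.4% of tested genes. Intervals of -1.06 to 0.28 for Nr4a1, -0.92 to 0.38 for Nr4a2 and -0.82 to 0.68 for Nr4a3 leave room for a fall to 0.479-fold at Nr4a1, but each ends below the lower bound of Egr3, 1.02. Deposited fold changes appear pulled toward 0 where reads are few, which may affect Nr4a3.

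Atf3, a stress-induced gene on chromosome 1 from 191170296 to 191183333, had the smallest change among the 8 tested genes, with a log2 fold change of 0.08 (SE 0.29; adjusted p = 0.908) at a mean normalized count of 136.1 in the authors' deposited table. Its interval was -0.49 to 0.65, which reaches a 1.57-fold rise. Of 14 other tested Atf and stress response genes, 0 rose and 1 fell (7.14%, against 4.74% of all tested genes), with a median log2 fold change of 0.03. The one that fell was Hspa5, the endoplasmic reticulum chaperone, with -0.95 (adjusted p = 0.00803) in the authors' deposited table.

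In the pathway that leads to immediate early genes, from receptors to kinases, 25 genes were tested, of which 4 rose (16%, against 6.15% of all tested genes) and 0 fell, with a median log2 fold change of -0.02. The receptor genes Egfr, Pdgfra and Pdgfrb rose by 1.67, 1.70 and 1.36 and the adaptor Shc1 by 0.59 (log2, adjusted p from 1.89e-07 to 0.0385, the authors' deposited table). Pdgfra and Pdgfrb are also among the fibroblast markers that rose, so these are not separate results. The receptor genes Fgfr1, Met and Igf1r, the adaptor Grb2, the exchange factor Sos1, and the tested Ras, Raf, Mek and Rsk genes did not pass the test. Of 20 transcription factors and cofactors that act at these promoters, Srf, Elk1, Elk3, Elk4 and Creb1 among them, 0 passed the authors' DESeq2 test. The share over all tested genes was 10.9% in either direction, so 0 of 20 is not read as a result about these factors. An unadjusted p under 0.05 was found for 2 of them. For Srf the authors' deposited table gave -0.23 on the log2 scale (adjusted p = 0.506). Srf was named after its value was seen. RNA levels do not show the phosphorylation through which this pathway signals.

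A list of corepressors and partners of Egr and Nr4a proteins also held Zfp36l1 and related mRNA decay factors. Of its 11 tested genes, 1 rose (9.09%, against 6.15% of all tested genes) and 0 fell, at a median of 0.05. The riser was Zfp36l1, an mRNA decay factor, by 0.72 (adjusted p = 0.00788) in the authors' deposited table. In the authors' deposited table Nab2, both a target and a corepressor of Egr proteins, stood at 0.73 (adjusted p = 0.0577) and Nab1 at -0.05. Nab1 and Nab2 are named here after their values were seen. Of 17 tested genes reported as Egr targets, 2 rose (Sphk1 by 1.07 and Mmp14 by 0.78), Ccnd1 fell by 0.89, and the median log2 fold change was 0.28, from the authors' deposited table. The shares of 11.8% higher and 5.88% lower stand against 6.15% and 4.74% of all tested genes. This list shares Nab2 and Arc with others.

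Other immediate early genes moved in both directions. Of 45 tested, 8 rose and 5 fell, or 17.8% and 11.1% against 6.15% and 4.74% of all tested genes, and the median was 0.03. Fos rose by 1.52 (SE 0.27; adjusted p = 2.25e-06) and Junb rose by 0.86, both log2 values from the authors' deposited table. Fosl1, an AP-1 gene, and Ctgf and Cyr61, which encode secreted matrix-associated factors, fell, and the authors' deposited table put them at -1.81, -1.76 and -0.93. Rgs2, a regulator of G protein signalling, fell by 1.36 in the authors' deposited table. Junb and Rgs2 were named after their values were seen. Egr2 and Egr1 lay above all 45 of these genes in fold change, and Egr3 lay just below Fos.

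**Figure D2:**
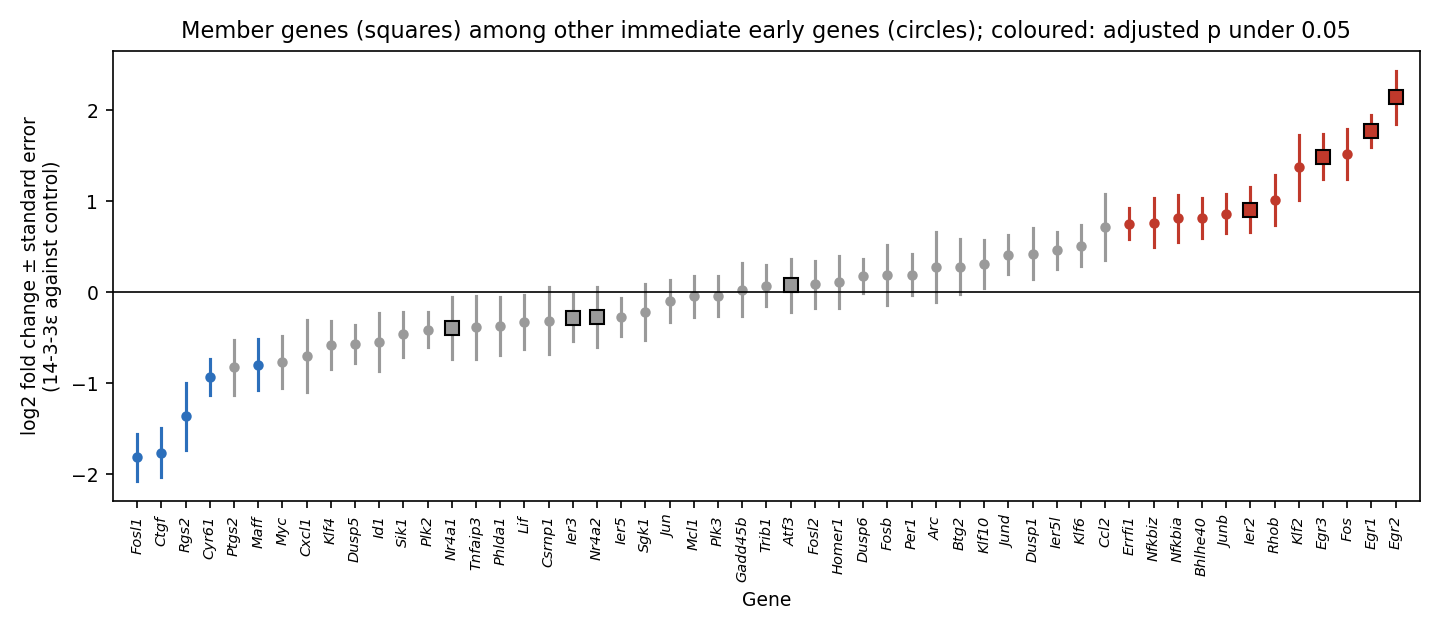
Log2 fold change with its standard error (y axis) for the 8 tested genes (squares) and 45 other immediate early genes (circles), ordered by value (x axis). Egr1, Egr2 and Egr3 stand at the upper end beside Fos, and Nr4a1, Nr4a2, Ier3 and Atf3 lie among genes that did not pass the test, while Fosl1 and Ctgf stand at the lower end.

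Methylation at Egr3 differed at 14 of 216 listed cytosines at q under 0.05, with 9 lower and 5 higher in the 14-3-3ε clones. This is 6.48% of the locus, which spans chr14:70076317-70083613 (mm10), against 4.74% of all cytosines and 4.3% of those within 1000 bp of any gene. Lower and higher calls made up 2.83% and 1.92% of all cytosines. Across 20514 genes with at least 20 listed cytosines the median was 3.05% and the upper quartile 6.45%, so Egr3 stood at that quartile. The mean difference at Egr3 was -0.289 percentage points and the median 0, against -0.491 and 0 over all cytosines, means taken from the authors' deposited table. The table gives differences only, with neither the methylation level nor the coverage of a site. Whether its q-values reflect the spread between clones is not known. All 216 cytosines lay inside the gene, from 70077473 to 70080078, so neither flank nor the upper-coordinate part of the gene was sampled.

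Of the 14 calls at Egr3, 13 lay within 426 bp, from 70078232 to 70078657, where 35 cytosines were listed. This stretch was delimited by the calls themselves, so its density is a description. Its calls fell into 3 groups that alternate in sign. In the first, the CpG at 70078260 differed by -35.0 points on the + strand, the largest value of the locus, and by -30.6 on the - strand (q = 3.83e-07 and 6.85e-08), in the authors' deposited table. Beside it, 70078232 was at -11.9 points, 70078306 and 70078307 at -12.1 and -9.98, and 70078543 at -31.7, per the authors' deposited table.

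The second group was higher. Both strands of the CpGs at 70078579 (18.4 and 23.3 points) and 70078639 (23.6 and 19.2) and 1 strand at 70078651 (17.7) were called in the authors' deposited table. Between them, 10 cytosines from 70078589 to 70078623 were not called and had values from -27.7 to 10.9 points in the authors' deposited table. The third group began 5 bp further on, where the CpG at 70078656 was lower on both strands, at -33.8 and -10.5 points, in the authors' deposited table. The last call, 70080051, stood alone at -34.1 points (q = 0.0178) in the authors' deposited table. Differences of one direction therefore did not extend over the Egr3 stretch, and its 35 cytosines averaged -4.49 points while the other 181 averaged 0.524 with 1 call.

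The strands of a CpG gave a check within the table. For all 14 calls the cytosine of the other strand was listed, 13 agreed in sign with it, and 10 had a called partner, which makes 5 CpGs. The exception was 70078543, at -31.7 points, with 5.74 on its other strand in the authors' deposited table. Size alone did not bring a call: 3 Egr3 cytosines differed by at least 25 points without one, such as 70078976 with 33.1 points at q = 0.0935 in the authors' deposited table.

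**Figure D3:**
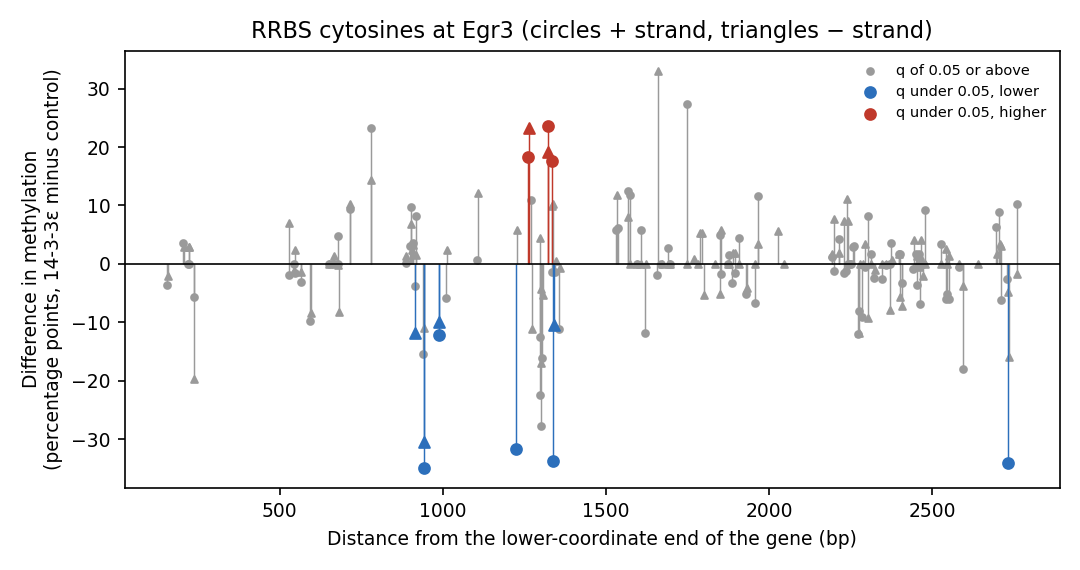
Difference in methylation at each of the 216 cytosines listed at Egr3 (y axis, percentage points) by distance from the lower-coordinate end of the gene (x axis, bp), with called sites in colour. Calls of both signs crowd between 915 and 1340 bp and a single lower call stands at 2734 bp, while 130 of the 216 sites lie within 5 points of 0.

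The loci of the other 9 genes, each with 1000 bp on both sides, held 1807 listed cytosines. Of these, 97 were called, 58 lower and 39 higher, or 5.37% against 4.74% of all cytosines. The share of called cytosines ran from 0 of 105 at Egr4 to 13 of 148 at Atf3 (8.78%). Loci of the 4 genes whose RNA rose had 20 lower and 21 higher calls among 725 cytosines (5.66%), and loci of the 4 tested genes that were not called had 30 lower and 15 higher among 895 (5.03%). Mean differences were between -1.19 points at Nr4a3 and 0.450 at Ier3, means taken from the authors' deposited table. Neighbouring cytosines are read on the same fragments and are not independent, and these shares were not tested against each other.

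**Figure D4:**
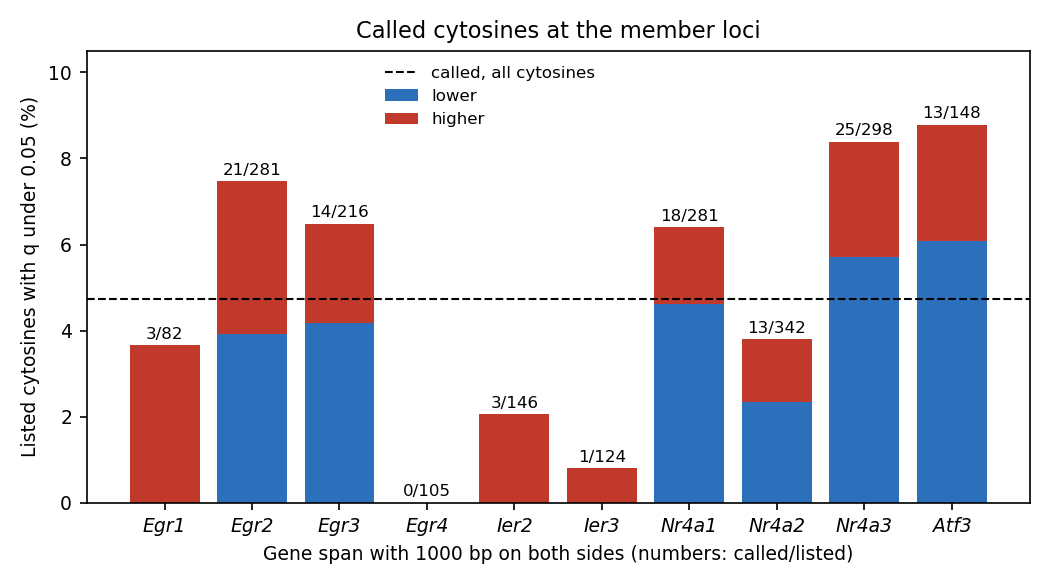
Share of listed cytosines with q under 0.05 (y axis, percent) at each gene with 1000 bp on both sides (x axis), split into lower and higher calls, with the number called over the number listed. The dashed line is the 4.74% called among all cytosines; Egr1, Ier2 and Ier3 have higher calls alone, Egr4 has none, and the other 6 loci have both signs.

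Egr2, like Egr3, had calls of both signs. Of 281 listed cytosines 21 were called, 11 lower and 10 higher, or 7.47% against 4.74% of all cytosines. From 67538636 to 67538835 all 9 calls among 25 cytosines were higher, by 12.1 to 28.0 points, and from 67538838 to 67539041 all 9 calls among 32 were lower, at -6.96 to -26.0 points, per the authors' deposited table. The lowest q of the locus was at 67538834, at 3.55e-10 with 17.8 points, and only 3 bp separated the last higher call, 67538835 (16.0 points), from the first lower one (-12.9 points) in the authors' deposited table. Averaged over the Egr2 locus, the difference was -0.144 points. These runs lie inside the gene, starting 706 bp beyond the last of its annotated transcript starts.

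**Figure D5:**
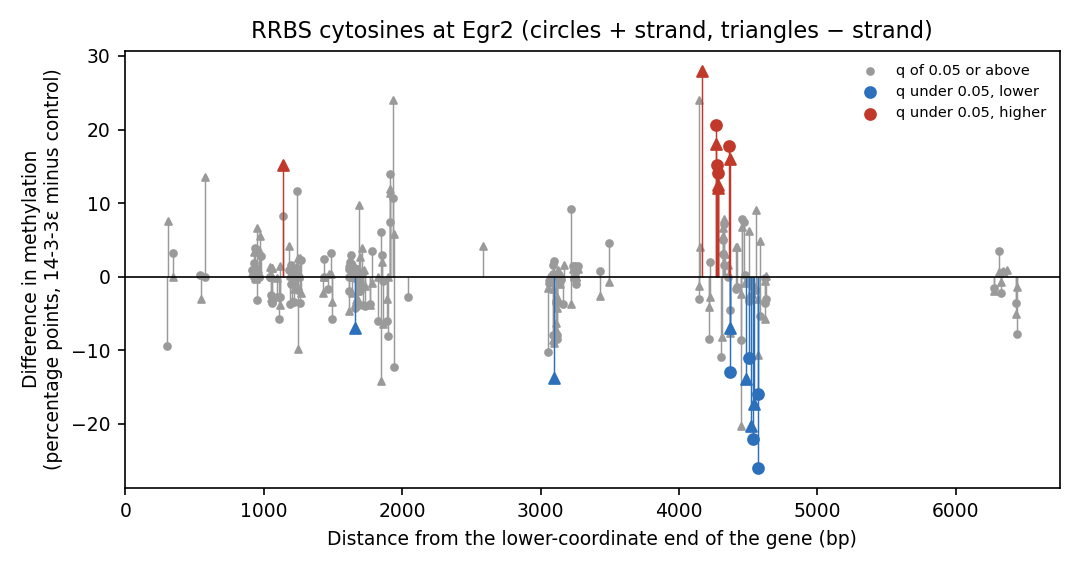
Difference in methylation at each of the 281 cytosines listed at Egr2 (y axis, percentage points) by distance from the lower-coordinate end of the gene (x axis, bp), with called sites in colour. Between 4167 and 4366 bp the called sites are higher, and from 4369 to 4572 bp they are lower.

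At Egr1 the 3 calls among 82 cytosines were all higher and lay inside the gene, 289 to 342 bp from its lower-coordinate end. They were 34861496 and 34861497, the strands of 1 CpG, at 8.13 and 13.9 points, and 34861549 at 6.32 in the authors' deposited table. Ier2 had 3 higher calls among 146, from 84662464 to 84662504, at 7.58 to 10.6 points in the authors' deposited table. Ier3 had 1 higher call among 124, at 17.9 points, outside the gene at 35821326, in the authors' deposited table. The called shares were 3.66% at Egr1, 2.05% at Ier2 and 0.806% at Ier3, against 4.74% of all cytosines. At these 3 loci 90.4% to 92.7% of cytosines differed by at most 5 points, against 60.2% at Egr3 and 56.8% at Atf3.

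Among the Nr4a loci, Nr4a3 had 17 lower and 8 higher calls of 298, with the largest single difference of all 10 loci, 45.7 points at 48046555, and -35.7 points at 48046073 in the authors' deposited table. Nr4a1 had 13 lower and 5 higher of 281, and Nr4a2 had 8 lower and 5 higher of 342. At Nr4a2, 3 lower calls from 57123707 to 57123731 held identical values, -31.6 points at p = 0.00176, in the authors' deposited table. Atf3 had 9 lower calls from 191182193 to 191183075 at -14.5 to -34.5 points, followed by 4 higher ones up to 191184072 at 21.1 to 26.7 points in the authors' deposited table.

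Promoters were nearly free of calls. RefSeq windows of GRCm38.p6, from 250 bp before to 50 bp after a transcript start, matched 7 of the 10 genes with 11 windows (5 for Egr2), and none matched Egr1, Egr3 or Ier2. In these windows 1 of 245 listed cytosines was called (0.408%), against 2.23% in all such windows. That call, 67537566 at -13.8 points in the authors' deposited table, is the base at which one Egr2 transcript starts. No cytosine was listed in the Atf3 window. Calls just past a window were not counted, such as 101266927 and 101266928 at Nr4a1, at -6.90 and -7.69 points in the authors' deposited table. The bases that RRBS listed in the windows were C on the listed strand at 279 of 279 checked positions, counting overlapping windows apart.

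The 250 bases upstream of 4 of these starts are shown because RNA of Egr2 rose while that of Nr4a1 and Nr4a2 did not pass the test and Nr4a3 had no adjusted p. Capitals mark exact CArG boxes, the sites of Srf, and TGACG, the core of a cyclic AMP response element, on either strand (CGTCA when reversed). They lie at chr10:67537619-67537868 (+ strand) for Egr2, chr15:101266596-101266845 (+) for Nr4a1, chr2:57124004-57124253 (-) for Nr4a2 and chr4:48045055-48045304 (+) for Nr4a3, each 5′ to 3′.
Egr2: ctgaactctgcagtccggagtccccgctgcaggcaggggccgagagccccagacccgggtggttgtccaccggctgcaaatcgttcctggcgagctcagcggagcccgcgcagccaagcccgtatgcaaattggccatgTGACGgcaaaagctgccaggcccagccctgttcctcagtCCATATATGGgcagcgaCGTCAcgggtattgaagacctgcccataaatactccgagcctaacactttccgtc
Nr4a1: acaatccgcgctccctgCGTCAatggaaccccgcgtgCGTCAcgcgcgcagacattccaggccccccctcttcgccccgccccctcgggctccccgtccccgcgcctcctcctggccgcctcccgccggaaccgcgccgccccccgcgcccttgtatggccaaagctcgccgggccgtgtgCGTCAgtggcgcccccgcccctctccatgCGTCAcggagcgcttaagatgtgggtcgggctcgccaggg
Nr4a2: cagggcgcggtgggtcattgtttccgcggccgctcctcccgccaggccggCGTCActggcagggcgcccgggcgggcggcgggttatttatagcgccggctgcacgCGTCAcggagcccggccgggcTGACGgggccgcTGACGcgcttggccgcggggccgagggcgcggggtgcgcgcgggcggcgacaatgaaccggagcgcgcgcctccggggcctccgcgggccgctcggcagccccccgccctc
Nr4a3: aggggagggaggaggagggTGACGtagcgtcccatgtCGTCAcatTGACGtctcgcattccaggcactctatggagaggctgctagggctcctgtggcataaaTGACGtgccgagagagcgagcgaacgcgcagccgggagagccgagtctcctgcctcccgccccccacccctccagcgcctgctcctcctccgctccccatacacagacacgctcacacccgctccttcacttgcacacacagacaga

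An exact CArG box, CC then 6 A or T bases then GG, stood in 4 of the 5 Egr2 windows. Of these, 3 overlap and share a box. None of the 6 windows of other genes held an exact box, against 482 of 32851 sequences of the same length in the RefSeq table (1.47%). A run 1 base off, such as ccttgtatgg in the Nr4a1 sequence, was not counted. Egr1, Egr3 and Ier2 had no sequence to search. In the Egr2 sequence shown the exact box reads CCATATATGG, from 72 to 63 bp before the start. TGACG was found in all 3 Nr4a promoters with 4 copies each, in those of Egr4 and Atf3, and in 3 of the 5 Egr2 windows, against 17.8% of all windows. The full palindrome TGACGTCA, present in 1.55% of all windows, and the Nr4a monomer site AAAGGTCA, in 1.34%, were in none. The Egr site GCGNGGGCG was in the Nr4a1 and Nr4a2 promoters and in 4.70% of all windows. The Ets site CCGGAA, in 12.0% of all windows, matched 1 time in the Nr4a1 sequence and 3 times in an Egr2 window not shown. It was absent from the Egr2 sequence shown. The AP-1 site TGANTCA, in 6.75% of all windows, was in none. TGACG, the Egr site and the Ets site contain CpG, and the Nr4a sequences were rich in it. They held 34 CpGs at Nr4a1, 44 at Nr4a2 and 18 at Nr4a3, against a median of 6 over all windows. The part of base composition in these matches was not tested. A match is a run of letters, and whether a factor was bound was not measured. RRBS listed 16, 46, 25 and 24 cytosines in the 4 sequences shown, with 0 calls and mean differences of 0.594, -0.954, -2.07 and 0.104 points, means taken from the authors' deposited table.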

How the data were processed

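RRBS and RNA-seq of 8 samples (2 clones in each of 4 groups) entered as the authors' 2 comparison tables. The submitters' processing notes name Trim Galore, Bismark with Bowtie2, methylKit, TopHat2, HTSeq, DESeq2 and build mm10, without versions. The RNA-seq table of the authors holds a mean normalized count (a signal over all libraries), a log2 fold change with its SE, a test statistic (a score), and p-values, plain and adjusted. The deposited RRBS table holds p-values and q-values and a methylation difference in percentage points (a score) per cytosine, and 253 repeated lines were dropped. The sources used here do not give the strand setting of the counting, the coverage minimum or the treatment of overdispersion. Depth and coverage are unknown, so no interval for counting error is given. Clones are separate colonies, and the RNA-seq p-values rest on 2 per group. Whether the RRBS p-values and q-values take account of the spread between clones is not known.

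Direction was read from tool convention. Intervals are the log2 fold change with the normal 95% range of its SE. Calls are adjusted p or q under 0.05. Adjusted p-values covered 11482 genes of 24062, and recomputing them with the Benjamini-Hochberg method gave the same values. Each locus is the RefSeq gene with 1000 bp on both sides. No new test was run. The summary functions were tested on simulated data. Python 3.11.15, pandas 2.3.3, numpy 2.4.6, scipy 1.17.1 and matplotlib 3.10.9 were used. The genes and lists were chosen with earlier results of these data known. Named were all 10 genes, at most 4 called genes per list by statistic, every called cytosine at Egr3 and the largest call elsewhere. Other positions named at the remaining loci were chosen after their values were seen. Alternatives were other thresholds, filters, flanks and strand handling.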

Additional observations from a re-analysis of the deposited data

How the results depend on the processing

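The count of 4 genes called by RNA held at an adjusted p under 0.01 or 0.1, with adjustment over all 17478 genes with a p, and with a mean level of at least 100, and was 3 when a change of at least 2-fold was also asked, which left out Ier2. For the 8 tested genes, 16 of 16 readjusted p-values stayed on the same side of 0.05. They reuse the authors' unadjusted p-values over other sets of genes, so they are not new tests. At Egr3 the 14 called cytosines became 7 at q under 0.01, 5 with at least 25 points, and 9 with both strands of a CpG counted once, since each setting asks for more or merges strands. They were 13 with at least 10 points or with Benjamini-Hochberg values, 14 in the gene alone and 18 with 5000 bp on both sides. The Egr3 mean difference of -0.289 points was 0 as a median, -0.168 with strands averaged first and -0.684 with 5000 bp added, as recomputed from the authors' deposited table; the cause was not tested. At the other 9 loci 97 calls became 49 at q under 0.01, 94 without flanks and 101 with 5000 bp. No paired analysis was possible because neither table gives a value for a clone, and leaving out a clone was not possible for the same reason.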

Other observations

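Genes next to the 10 immediate early genes were looked at for RNA changes of their own. Within 10000 bp lay 9 annotated genes, of which 7 were listed and 5 tested. By the authors' DESeq2 test 0 of the 5 were called (0 at an unadjusted p under 0.05), against 10.9% of all tested genes. With only 5 genes, 0 calls are not read as a result about these neighbours. The largest value among them was 0.56 (SE 0.31; adjusted p = 0.263) for Fbxo41, which lies 8127 bp from Egr4, in the authors' deposited table. Ado, 2323 bp from Egr2, had 0.06, and Flot1, 409 bp from Ier3, had -0.16 in the authors' deposited table.

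Calls of both signs stood at 6 of the 10 loci. Along its calls Nr4a3 changed sign 9 times, Nr4a1 and Nr4a2 5 times each, Egr2 3 times, Egr3 2 times and Atf3 once. The closest calls of opposite sign were 3 bp apart at Egr2, 5 at Egr3, 16 at Nr4a3, 27 at Nr4a2, 32 at Atf3 and 239 at Nr4a1.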
